A study of Rattus norvegicus with 10 samples.

Results

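The livers of 3 male Wistar rats killed 24 h after total-body irradiation (TBI) were compared, gene by gene, with the livers of 3 untreated male control rats. The arrays labelled 6.5 Gy were set against those labelled 0 Gy, so that 6 of the 10 rats of the series entered the comparison. A probe was described when its spot was well above background on all arrays of at least 1 of these groups, which held for 25246 of 40945 probes and named 9574 genes. The control rats received neither irradiation nor drug, and the TBI rats received irradiation from a cobalt source and no drug. By the study's methods the normal control rats were not placed in the radiation container, so that placement and irradiation cannot be told apart. The labels of the arrays give the dose as 6.5 Gy, which differs from the doses in the study's text. The other 4 rats were given MASM, a derivative of the alkaloid matrine, by mouth at 30 mg/kg a day for 3 days before the same irradiation, and they are used here to show where TBI rats without the drug differed. Each rat gave total RNA of whole liver for 1 single-colour array. Each value therefore mixes all cell types of the liver, and fewer cells of a type and less RNA per cell cannot be told apart.

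Ionising radiation breaks DNA, and the breaks activate the kinases ATM and ATR and, through them, the transcription factor p53. p53 turns on genes that halt the cell cycle, restrain p53 itself or prepare cell death, and one of its targets, the cell cycle inhibitor p21, is needed for the repression of many genes of replication and mitosis through the DREAM complex. The adult liver consists mostly of resting hepatocytes, beside Kupffer cells, endothelium, stellate cells and lymphocytes, and lymphocytes are among the most radiosensitive cells of the body.

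The control arrays had 57.2% to 59.9% of their spots well above background and the TBI arrays 64.1% to 70.1%. The spots that carry no rat sequence read lower on the TBI arrays, with a median processed signal of 2.04 to 2.41 against 2.96 to 3.25 on the control arrays. There were 2909 probes well above background on all TBI arrays but not on all control arrays, and 278 the other way round. Slide 1 carried all control arrays and MASM + TBI rat 3, and slide 2 carried all TBI arrays, so that slide and irradiation cannot be told apart in the comparison of TBI with control. MASM + TBI rat 3 was irradiated and sat on the slide of the control rats, and its values are therefore given beside some of the main results. In some other called genes this rat lay within the control range. Across all probes, Pearson's r was 0.983 to 0.985 between control rats, 0.978 to 0.983 between TBI rats and 0.971 to 0.976 between a control and a TBI rat, where probes are not independent replicates. The 10 of 10 hepatocyte markers examined, such as albumin, had signal well above background throughout, and 0 of them passed the limma test between the groups (3 at an unadjusted p under 0.05). Levels are given as log2 intensity after quantile normalization, for rats 1, 2 and 3 of a group in that order, and differences as log2 fold change, TBI minus control, with the standard error (SE).

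A probe was called up-regulated or down-regulated when its adjusted p in limma was under 0.05 and its fold change at least 1.5. By this rule 1842 probes (4.50%) were called, 821 up and 1021 down, or 2.01% and 2.49% of all probes. Among the probes described, 1464 were called (5.80%), of which 668 rose (2.65%) and 796 fell (3.15%). With 1 probe for each of 13426 genes, 696 genes were called (5.18%), of which 328 rose (2.44%) and 368 fell (2.74%), and 596 of them met the criterion for description, 271 up and 325 down. A change of at least 4-fold was estimated for 39 of the genes that rose and 66 of those that fell. The 3 control rats and the 3 TBI rats did not overlap in any of the 596 genes, and they did not overlap in 30.3% of all probes. Of the probes called, 44.6% rose, and 23.2% did when arrays were scaled to the 75th percentile instead. The median difference over all probes was -0.03 with quantile normalization and -0.07 with that scaling. Of the 240 probes called among those well above background on all TBI arrays but not on all control arrays, 237 rose. Of the 113 called in the reverse set, 113 fell. These sets are defined by the group in which a probe was detected, so that nothing is read from their directions. The part of the lower background of the TBI arrays in the calls was not tested.

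**Figure D1:**
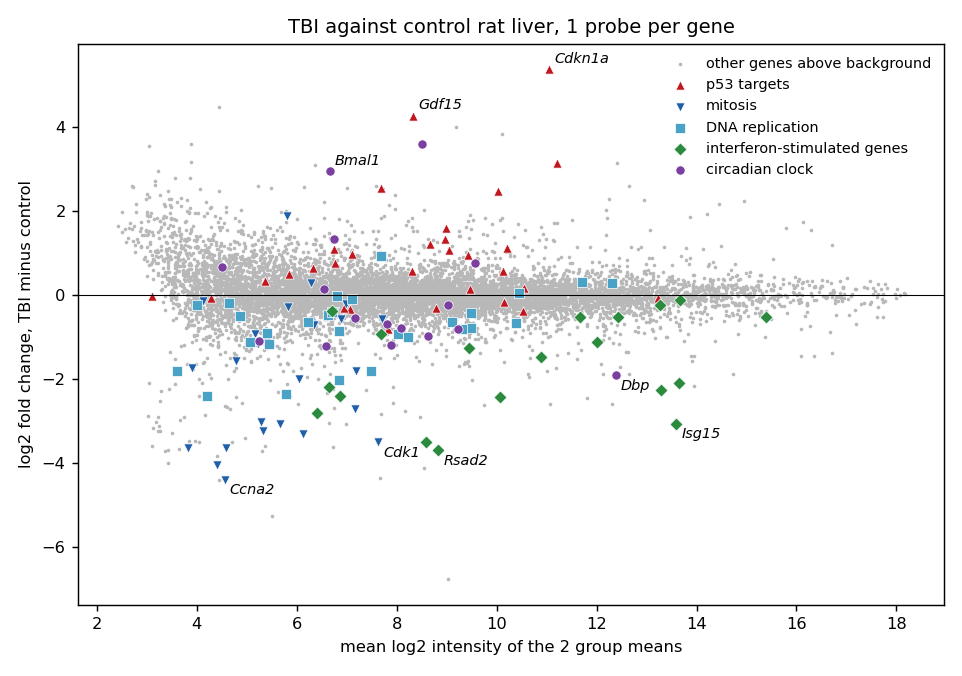
Log2 fold change (TBI minus control, vertical axis) against the mean log2 intensity of the group means (horizontal axis) for each gene described (grey) and for 5 gene groups (colours). Cdkn1a (5.36) and Gdf15 (4.26) stand at the top and Rsad2 (-3.69), Cdk1 (-3.50) and Isg15 (-3.06) far below 0.

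The p53 targets included the largest rise among the 506 called genes ranked, whose probes were detected on at least 1 array of the dimmer group. Of 30 such genes with a probe, 13 rose and 0 fell, with a median difference of 0.60, against 2.44% of all genes that rose and a median of -0.03 over all probes. Leaving out each rat in turn gave 10 to 14 genes up. All of these 30 genes were well above background on all arrays of at least 1 group. Cdkn1a, which encodes the cyclin-dependent kinase inhibitor p21, read 8.01, 8.25 and 8.84 in control rats and 13.47, 13.67 and 14.06 in TBI rats. The lowest TBI rat was far above the highest control rat, and the rise of 5.36 ± 0.27 (SE), or 41.2-fold, had an adjusted p of 0.00013 in limma. Its other probe was called up as well, with 0 of 3 control arrays well above background (adjusted p = 0.000757). Gdf15, a secreted stress cytokine, read 5.73, 6.64 and 6.23 in control rats and 10.18, 10.55 and 10.65 in TBI rats, a rise of 4.26 ± 0.47 (adjusted p = 0.00283). MASM + TBI rat 3, on the slide of the control rats, read 12.80 for Cdkn1a and 10.60 for Gdf15, in both cases above all control rats.

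Among the growth arrest genes, 5 of 8 rose. Ccng1, which encodes cyclin G1, read 8.61, 9.12 and 8.62 against 11.31, 11.45 and 11.04, a difference of 2.48 ± 0.27 (adjusted p = 0.00283), and its other probe gave 2.51. Btg2, an antiproliferative gene, read 9, 10.39 and 9.52 against 12.14, 13.13 and 13.02. The groups were apart for both genes, but Btg2 varied more within the control group, and its call (3.13 ± 0.60, adjusted p = 0.0244) was lost without control rat 1 or 3 or TBI rat 2 or 3, up to an adjusted p of 0.0805. Zmat3 and Sesn2 rose by about 1 log2 unit (1.06 and 0.98). Plk3 (1.10 ± 0.33, adjusted p = 0.0946), Plk2 and the damage-inducible gene Gadd45a (0.15) did not pass the test. For Gadd45a the control rats ranged from 8.50 to 10.19 and the TBI rats from 8.47 to 10.16, which is nearly the same interval.

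Of 11 targets with a role in cell death, 5 rose. Phlda3, an inhibitor of Akt signalling, rose by 2.55 ± 0.15, from 6.22, 6.30 and 6.71 in control rats to 8.91, 9.15 and 8.81 in TBI rats (adjusted p = 0.000253). Aen, an apoptosis-enhancing nuclease, read 8.15, 8.25 and 8.17 against 9.81, 9.87 and 9.71, and its 1.60 ± 0.09 had an adjusted p of 0.000154. Bax, the pro-apoptotic pore former of the Bcl-2 family, read 8.02, 8.01 and 8.17 against 9.14, 9.33 and 9.31. In each of these 3 genes the rats of a group lay within 1 log2 unit of each other, and Bax rose by 1.20 ± 0.10. Tp53inp1 (1.34) and the death receptor gene Fas (1.11) rose as well. Bbc3, which encodes the p53 target PUMA, did not pass the test, with 10.50, 10.36 and 10.54 against 10.26, 11.05 and 10.59.

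Mdm2 and Mdm4, which encode the inhibitors that bind p53, rose by 0.96 ± 0.16 and 0.76 ± 0.11. Mdm2 read 8.92, 8.98 and 8.96 in control rats and 9.76, 9.84 and 10.13 in TBI rats (adjusted p = 0.0162). Of the 6 targets that serve repair or metabolism 0 were called in limma (2 at an unadjusted p under 0.05), and Xpc, which encodes a sensor of nucleotide excision repair, had the most negative estimate of the 30 genes (-0.81 ± 0.21, adjusted p = 0.0616). The p53 decamer, the unit that p53 response elements repeat, was searched on both strands in the 250 bases before the start of the gene and was found in 5 of 24 of these promoters (20.8%), against 6.56% of 27457 rat promoters.

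**Figure D2:**
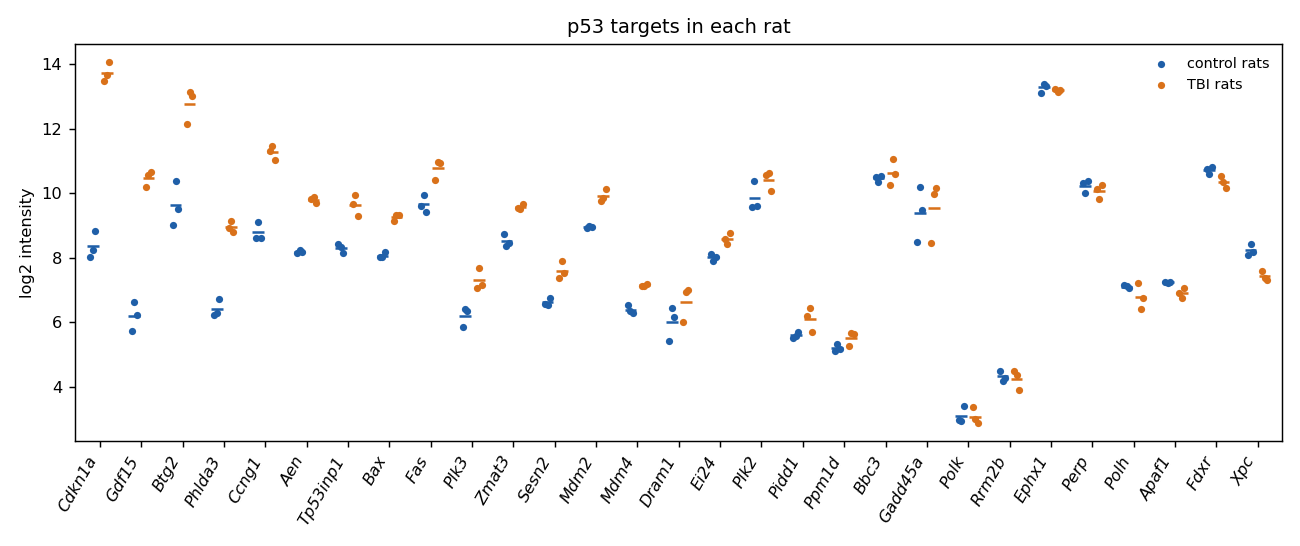
Log2 intensity of the p53 targets (1 of the 30 is left out) in each control rat (blue) and each TBI rat (orange), with lines at the group means. Cdkn1a reads 8.01 to 8.84 in control rats and 13.47 to 14.06 in TBI rats, whereas the rats of both groups lie together for Gadd45a and Bbc3.

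Of the damage and repair genes listed, more fell than rose, while the repair genes Mgmt and Nhej1, outside the list, rose. Mgmt, which encodes the methyltransferase that removes alkyl groups from guanine, was among the 15 largest rises of the 506 called genes whose groups did not overlap and whose probe was detected on each array of the brighter group and at least 1 of the dimmer. It read 11.59, 12.04 and 11.82 in control rats and 14.08, 14.21 and 13.91 in TBI rats, a difference of 2.25 ± 0.16 (adjusted p = 0.000521). Nhej1, whose product XLF acts in end joining, read 5.43, 5.35 and 5.53 against 7.58, 7.35 and 8. The groups did not overlap, and the rise of 2.21 ± 0.15 had an adjusted p of 0.000461, whereas the second probe of Nhej1 gave 0.38 ± 0.17 (adjusted p = 0.207). Neither gene belonged to the list of 29 damage and repair genes with a probe, of which 1 rose and 6 fell, against 2.44% and 2.74% of all genes, with a median of -0.20. Without 1 rat at a time, 2 to 6 fell, and normexp gave 2. The gene of this list that rose was Prkdc, which encodes the catalytic subunit of DNA-PK for end joining (0.62 ± 0.13), and its call was lost without any 1 of the control rats or TBI rat 2 or 3, up to an adjusted p of 0.104.

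Of the 7 genes of homologous recombination, 4 fell. Rad54l, which encodes a DNA translocase of this pathway, read 6, 6.65 and 6.30 in control rats and 5.13, 5.26 and 5.21 in TBI rats, without overlap, and fell by 1.11 ± 0.16 (adjusted p = 0.00857). Rad51ap1 read 5.59, 5.89 and 5.85 against 4.36, 4.37 and 5.03 and fell by 1.19 ± 0.21, a call lost without control rat 2 or 3 or TBI rat 2 (adjusted p up to 0.0678). Brca1 was called down with 0 arrays of either group well above background, so that its size is not known. The checkpoint kinase gene Chek2 (-1.26 ± 0.27) and Rad50 (-0.68 ± 0.15) fell, and both calls were lost without any 1 of the control rats, among others, with adjusted p up to 0.0802 and 0.111. The genes of excision and mismatch repair had estimates between -0.31 and 0.14, and 0 of 9 were called in limma (2 at an unadjusted p under 0.05).

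Most mitosis genes fell. Of 33 such genes with a probe, 19 fell and 0 rose, against 2.74% of all genes that fell, and the median was -1.63. Of these, 25 were well above background on all arrays of at least 1 group. Leaving out each rat in turn gave 14 to 20 genes down, and the normexp background correction, which compresses dim signals, gave 11 with a median of -0.30. Cdk1, which encodes the kinase that drives entry into mitosis, read 8.87, 9.62 and 9.64 in control rats and 5.74, 5.55 and 6.37 in TBI rats. The highest TBI rat was more than 2 log2 units below the lowest control rat, and the difference was -3.50 ± 0.40 (adjusted p = 0.00329). MASM + TBI rat 3 read 6.32 for Cdk1, below all control rats and on the same slide.

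Of Cdk1 and the 5 cyclins and cofactors listed with it, 4 fell, and Ccnf (-0.15) and Cks2 (-0.21) did not pass the test. Ccnb1 read 6.41, 7.12 and 6.87 in control rats and 3.85, 3.83 and 3.63 in TBI rats, a difference of -3.03 ± 0.39 (adjusted p = 0.0056). Ccnb2 read 6.12, 6.49 and 6.60 against 2.92, 2.09 and 3.24, with 1 of 3 TBI arrays well above background (-3.65 ± 0.39). Ccna2, which encodes cyclin A2, read 6.14, 7.04 and 7.07 in control rats, whereas 0 of 3 TBI arrays were well above background (1.69, 2.91 and 2.48). By a bound taken from the dim arrays, Ccna2 fell at least 14.7-fold, counted from the lowest signal well above background on each TBI array (adjusted p = 0.00595). Control rat 1 was the lowest of the control rats for all 4 of these genes.

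Promoters of Cdk1, Ccnb2 and Birc5 are shown because they carry letters known from promoters of mitosis genes. The capitals mark TTTGAA, the core of the cell cycle genes homology region, and CCAAT, both searched on both strands and not overlapping each other. The windows are the 250 bases before the start of the gene in RefSeq on the build GRCr8, 5′ to 3′ along the gene, at chr20:19265043-19265292 on the plus strand for Cdk1, chr8:79981659-79981908 on the minus strand for Ccnb2 and chr10:103571896-103572145 on the plus strand for Birc5.
Cdk1: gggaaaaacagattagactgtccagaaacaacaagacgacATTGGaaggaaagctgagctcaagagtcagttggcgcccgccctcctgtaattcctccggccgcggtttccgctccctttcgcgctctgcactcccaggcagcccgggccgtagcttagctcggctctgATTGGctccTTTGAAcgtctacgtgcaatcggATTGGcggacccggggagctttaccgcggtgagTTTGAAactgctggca
Ccnb2: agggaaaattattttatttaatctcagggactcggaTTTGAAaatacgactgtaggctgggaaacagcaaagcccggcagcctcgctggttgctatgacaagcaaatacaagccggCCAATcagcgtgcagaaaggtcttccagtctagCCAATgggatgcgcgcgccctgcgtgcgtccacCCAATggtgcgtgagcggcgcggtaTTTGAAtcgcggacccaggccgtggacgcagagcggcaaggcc
Birc5: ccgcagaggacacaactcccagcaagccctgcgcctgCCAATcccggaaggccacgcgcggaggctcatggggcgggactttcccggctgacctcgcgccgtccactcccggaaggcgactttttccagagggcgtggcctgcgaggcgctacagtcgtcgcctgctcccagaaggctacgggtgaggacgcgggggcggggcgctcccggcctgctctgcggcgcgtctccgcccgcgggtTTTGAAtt
TTTGAA was found in 14 of 26 mitosis promoters (53.8%) and CCAAT in 20 of 26 (76.9%), against 16% and 34.3% of 27457 rat promoters. Among the mitosis genes that fell, TTTGAA was found in 6 of 13 (46.2%), a share that does not exceed that of the whole list. A match describes the letters and is not evidence of a bound site.

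Spindle and kinetochore genes fell in 8 of 16 cases. Kif20a, which encodes a kinesin of cytokinesis, read 7.34, 7.95 and 8.03 in control rats and 4.47, 4.28 and 4.64 in TBI rats (-3.31 ± 0.26, adjusted p = 0.000697). Nuf2, a kinetochore gene, read 5.35, 5.83 and 5.69 in control rats and 2, 1.90 and 2.09 in TBI rats, with 0 of 3 TBI arrays well above background, at least 6.86-fold lower. Birc5, which encodes survivin, read 7.58, 8.51 and 8.16 against 6.35, 6.30 and 6.16. The TBI rats lay close together in all 3 genes, and Birc5 fell by 1.81 ± 0.23 (adjusted p = 0.0051). Kif22 (-3.50), Cenpt (-3.50) and the separase gene Espl1 (-3.40), which were not in the list, were among the 15 largest falls of these 506 genes, each with 1 or 2 of 3 TBI arrays well above background.

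Mitotic kinase and checkpoint genes fell in 7 of 9 cases. Bub1, a spindle checkpoint kinase gene, read 6.77, 7.27 and 7.12 in control rats and 5.06, 4.95 and 5.13 in TBI rats, with a difference of -2 ± 0.14 (adjusted p = 0.000521). Plk1 (-2.70 ± 0.29), Ttk (-4.04 ± 0.62, with 1 of 3 TBI arrays well above background) and Ube2c (-3.06 ± 0.36), which encodes a ubiquitin-conjugating enzyme that works with the anaphase-promoting complex, fell by more. Aurka and Cdc20, which encode a spindle pole kinase and an activator of the anaphase-promoting complex, did not pass the test (-0.29 and -0.58). Mybl2, a transcription factor gene of the S and G2 phases, read 4.57, 4.79 and 5.23 in control rats and 5.92, 6.65 and 7.65 in TBI rats. It was the one mitosis gene whose estimate lay above 1, and it missed the test (1.88 ± 0.48, adjusted p = 0.0614). Mybl1, its relative, was well above background on 1 of 3 control arrays and rose by 2.59 ± 0.43, a call lost without control rat 2 or 3 (adjusted p up to 0.0516).

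**Figure D3:**
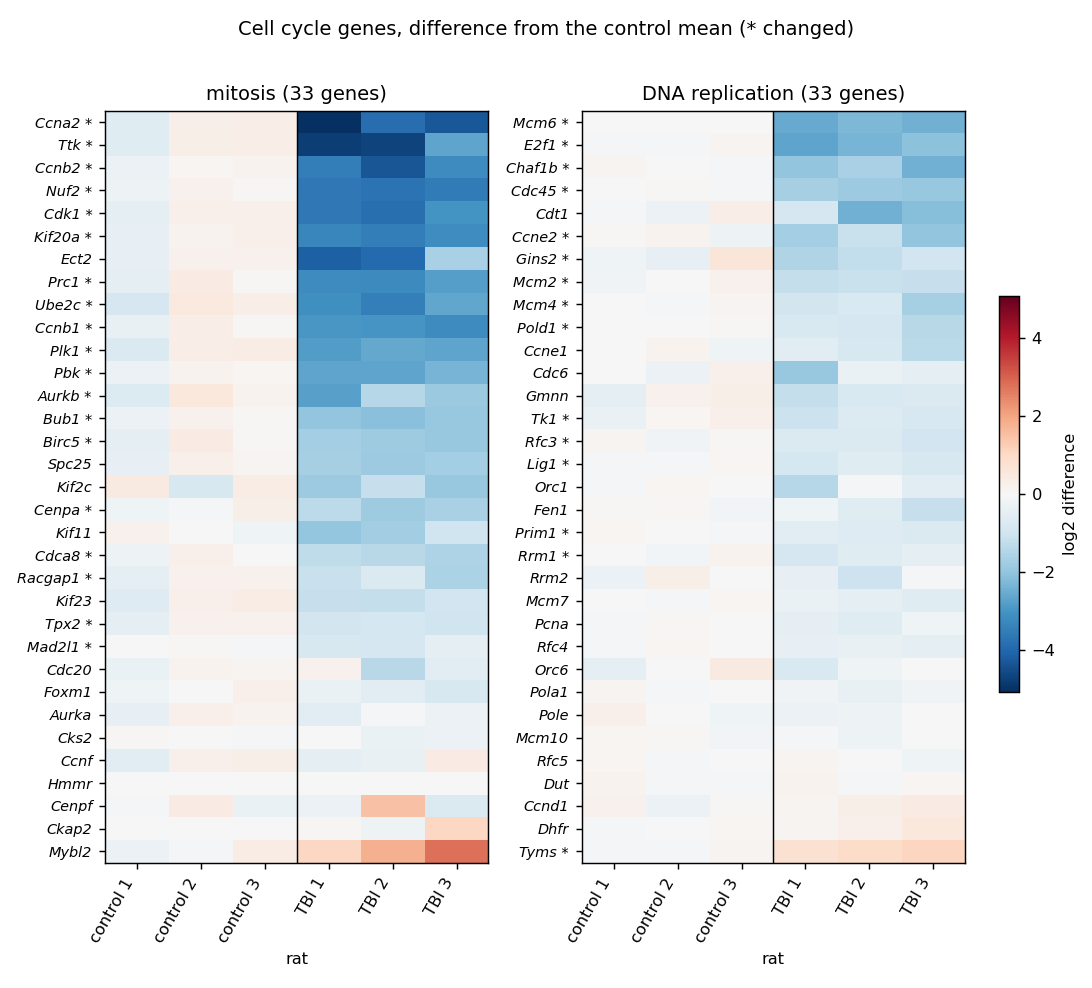
Log2 difference from the control mean in each of the 6 rats (columns) for the mitosis and DNA replication genes (rows), with an asterisk at genes that passed the test. The TBI columns are negative for 30 of 33 mitosis genes on average, with Cdk1 at -3.50, and Mybl2 (1.88) and Tyms (0.93) are the largest positive estimates in either panel.

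Many DNA replication genes fell. Of 33 with a probe, 14 fell and 1 rose, against 2.74% and 2.44% of all genes, and the median was -0.70. Leaving out each rat in turn gave 9 to 13 genes down, and the normexp correction gave 5. E2f1, which encodes a transcription factor of entry into S phase, read 6.87, 6.90 and 7.11 in control rats and 4.28, 4.61 and 4.90 in TBI rats (-2.36 ± 0.22, adjusted p = 0.00139). Its dimmer second probe gave -1.15. Mcm6, a subunit of the replicative helicase, read 5.43, 5.38 and 5.43 against 2.85, 3.15 and 3.00, with 1 of 3 TBI arrays well above background (-2.41 ± 0.31). Cdc45, another helicase gene, fell from 8.37, 8.45 and 8.33 to 6.69, 6.55 and 6.46 (-1.82 ± 0.13, adjusted p = 0.000461). In these 3 genes each control rat exceeded each TBI rat by over 1 log2 unit.

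Chaf1b, a subunit of the chromatin assembly factor, fell by 2.02 ± 0.22, and the primase gene Prim1 and the ligase gene Lig1 fell by 0.65 ± 0.09 and 0.78 ± 0.11. Pcna, the sliding clamp, read 9.63, 9.76 and 9.71 against 9.21, 9.09 and 9.50 and did not pass the test (-0.44 ± 0.11, adjusted p = 0.0575). Ccnd1, which encodes cyclin D1 of the G1 phase, did not pass it either, with 12.40, 11.87 and 12.24 against 12.30, 12.48 and 12.58. Tyms, which encodes thymidylate synthase, was the gene that rose, from 7.14, 7.14 and 7.34 to 7.99, 8.14 and 8.30 (0.93 ± 0.15, adjusted p = 0.0142). The groups did not overlap for Tyms, but its adjusted p was 0.0504 without control rat 2.

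The promoters of Mcm6 and Mcm2 are shown for comparison with those of the mitosis genes. The capitals mark TTTCGCGC, an E2F site, searched on both strands, and in Mcm2 matches on both strands overlap. The windows lie at chr13:42404353-42404602 and chr4:122918095-122918344, both on the minus strand of GRCr8, and are from RefSeq.
Mcm6: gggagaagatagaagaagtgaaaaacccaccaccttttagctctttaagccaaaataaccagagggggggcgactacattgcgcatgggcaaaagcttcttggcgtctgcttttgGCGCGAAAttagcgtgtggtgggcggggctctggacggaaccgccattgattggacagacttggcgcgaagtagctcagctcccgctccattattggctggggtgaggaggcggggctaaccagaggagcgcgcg
Mcm2: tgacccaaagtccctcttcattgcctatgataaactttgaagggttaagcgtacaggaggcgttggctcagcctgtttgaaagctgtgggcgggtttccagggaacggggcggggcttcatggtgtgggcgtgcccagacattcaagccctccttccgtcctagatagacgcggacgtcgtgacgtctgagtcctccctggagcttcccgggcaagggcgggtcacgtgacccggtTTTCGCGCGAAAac
The site was found in 3 of 25 replication promoters (12%) against 0.262% of all promoters, and in 2 of 11 of the genes that fell. Among the mitosis promoters it was found in 1 of 26 (3.85%), that of Cdk1, where it is not in capitals above. TTTGAA was found in 1 of 25 replication promoters (4%), that of Mcm2, where it is not in capitals, against 16% of all promoters. CCAAT was found in 13 of 25 (52%), against 34.3% of all.

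All 20 interferon-stimulated genes with a probe had a negative estimate, with a median of -1.36, and 12 fell and 0 rose, against 2.74% and 2.44% of all genes. Leaving out each rat in turn gave 9 to 13 genes down. These genes are turned on by signalling from the interferon receptors, and many restrict viruses. Rsad2, which encodes the antiviral enzyme viperin, read 10.10, 11.38 and 10.58 in control rats and 7.09, 6.85 and 7.04 in TBI rats, a difference of -3.69 ± 0.29 (adjusted p = 0.000697). Isg15, a ubiquitin-like protein, read 14.03, 15.85 and 15.49 against 12.48, 12.08 and 11.65 (-3.06 ± 0.44, adjusted p = 0.00834). Mx2, a dynamin-like GTPase gene, read 9.58, 10.79 and 10.60 against 7.13, 6.85 and 6.51. No TBI rat reached the lowest control rat in these 3 genes, and control rat 1 was the lowest control rat in each. MASM + TBI rat 3 read 6.98 for Rsad2, 11.85 for Isg15 and 7.48 for Mx2, below all control rats of the same slide.

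Oas1a, a sensor of double-stranded RNA, fell by 2.10 ± 0.27, Usp18, which removes Isg15 from proteins, by 2.42 ± 0.23, and Ifit3 by 2.40 ± 0.27. Irf7, a transcription factor of the pathway, read 13.32, 15.03 and 14.88 against 12.26, 12.47 and 11.74, a difference of -2.25 ± 0.46 (adjusted p = 0.0306). Stat2, a transcription factor of the interferon signal, fell by 0.94 ± 0.12. Genes of the list that interferon gamma also drives did not pass the test, such as the immunoproteasome genes Psmb8 (-0.52) and Psmb9 (-0.24), Gbp2 (-0.53) and Irf1 (-0.38). For Psmb9 the TBI rats read 12.46, 13.32 and 13.64 and the control rats 12.84, 13.64 and 13.66, so that the groups overlapped. Ifit1 was well above background on 0 arrays of either group.

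The promoters of Rsad2, Ifit3 and Oas1a are shown because they hold GAAA, any 2 bases and GAAA again, the core of the interferon-stimulated response element, which the capitals mark on either strand. In Oas1a a pair of matches overlap. The windows are from RefSeq on GRCr8, at chr6:48788121-48788370 on the minus strand, chr1:241527076-241527325 on the plus strand and chr12:41330216-41330465 on the plus strand.
Rsad2: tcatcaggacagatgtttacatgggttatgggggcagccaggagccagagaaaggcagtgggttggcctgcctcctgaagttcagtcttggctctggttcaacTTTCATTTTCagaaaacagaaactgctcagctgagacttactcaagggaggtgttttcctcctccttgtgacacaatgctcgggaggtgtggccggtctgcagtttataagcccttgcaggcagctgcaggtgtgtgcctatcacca
Ifit3: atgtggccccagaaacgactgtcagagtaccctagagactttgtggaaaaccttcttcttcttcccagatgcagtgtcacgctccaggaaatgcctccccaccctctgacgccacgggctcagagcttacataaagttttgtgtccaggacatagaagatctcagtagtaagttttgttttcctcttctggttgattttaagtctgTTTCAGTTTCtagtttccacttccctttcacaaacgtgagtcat
Oas1a: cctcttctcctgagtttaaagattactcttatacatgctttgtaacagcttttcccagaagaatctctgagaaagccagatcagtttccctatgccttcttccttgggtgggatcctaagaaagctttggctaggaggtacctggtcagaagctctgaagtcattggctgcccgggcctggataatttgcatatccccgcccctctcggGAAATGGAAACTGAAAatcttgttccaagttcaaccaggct
The element was found in 8 of 14 interferon-stimulated promoters (57.1%) and in 5 of 8 of those that fell (62.5%), against 3.29% of all promoters. The share is a description of the letters in these windows.

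**Figure D4:**
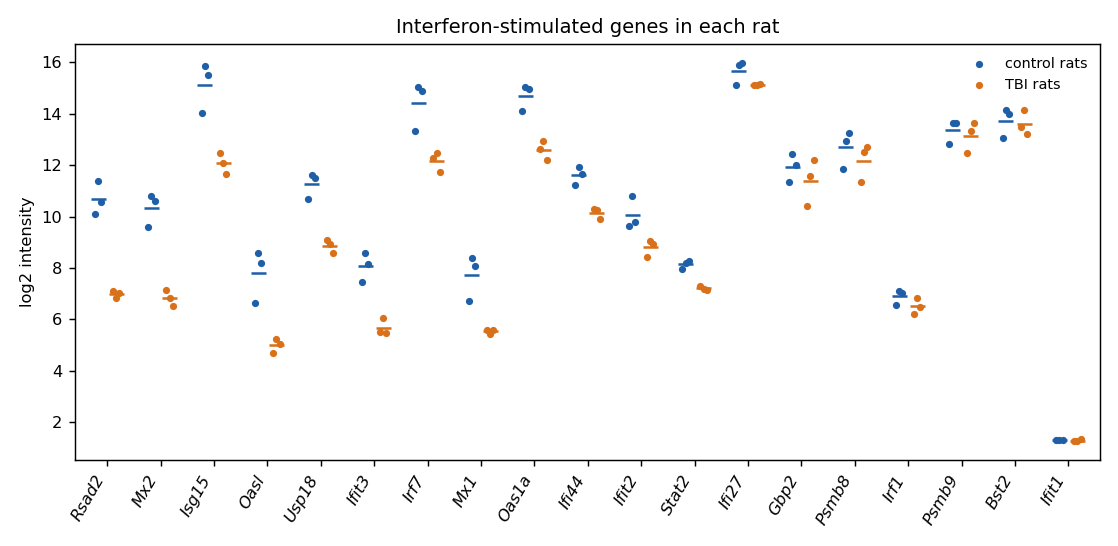
Log2 intensity of the interferon-stimulated genes (1 of the 20 is left out) in each control rat (blue) and TBI rat (orange), with lines at the group means. The TBI rats lie between 6.85 and 7.09 for Rsad2, below control rats at 10.10 to 11.38, whereas the groups overlap for Bst2 and Psmb9.

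Clock genes moved in both directions. In the molecular clock the activators Bmal1 and Clock or Npas2 turn on the repressors of the Per, Cry and Nr1d families and the output factors Dbp and Tef. Of 16 clock genes with a probe, 2 rose and 6 fell, against 2.44% and 2.74% of all genes, with a median of -0.63. Leaving out each rat in turn gave 0 to 3 up and 2 to 6 down, with 0 and 2 without control rat 1, and normexp gave 2 and 3. Bmal1 read 4.88, 5.18 and 5.50 in control rats and 8.34, 7.49 and 8.58 in TBI rats, a difference of 2.95 ± 0.51 (adjusted p = 0.0173) that was lost without control rat 1 or 2 (adjusted p up to 0.0548). Dbp read 13.34, 13.34 and 13.35 against 11.16, 11.89 and 11.25, a difference of -1.91 ± 0.22 (adjusted p = 0.00367). The control rats were nearly equal in Dbp, and the TBI rats lay more than 1 log2 unit lower. MASM + TBI rat 3 read 5.18 for Bmal1, within the control range, and 12.65 for Dbp, below it.

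Cry2, a repressor, read 7.12, 7.38 and 7.07 in control rats and 5.86, 6.27 and 5.79 in TBI rats (-1.21 ± 0.17, adjusted p = 0.00804). Tef (-0.98 ± 0.17), Nr1d1 (-0.80 ± 0.16), Wee1 (-1.19 ± 0.24) and Per2 (-0.79 ± 0.18) fell as well, and each of these 4 calls was lost without control rat 1, among others, with adjusted p up to 0.0613, 0.0802, 0.0853 and 0.12 when 1 rat was left out. The order of the control and TBI rats did not overlap in any of them. MASM + TBI rat 3 read 8.85 for Tef and 8.99 for Nr1d1, below all control rats. It read 8.52 for Wee1, within the control range, and 9.43 for Per2, above all control rats. Npas2 (1.34 ± 0.40, adjusted p = 0.0912) and Clock (0.67) had positive estimates and Per3 (-1.10) and Cry1 (-0.69) negative ones without passing the test, and Per1 was at 0.13. Noct, which encodes the rhythmic NADP phosphatase nocturnin, rose by 3.58 ± 0.86, from 6.59, 6.94 and 6.59 to 9.35, 10.91 and 10.62, close to the threshold (adjusted p = 0.0492), and was lost without any 1 of the control or TBI rats, among others (up to 0.136). Its other probe, with 0 of 3 control arrays well above background, was not called (adjusted p = 0.0896). The E-box CACGTG was found in 2 of 14 clock promoters against 5.79% of all, and the D-box TTATGNAA in 1 of 14 against 3.21%, both strands searched. The labels do not give the time of day at which each rat was killed.

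Glucocorticoid-responsive genes did not move one way. Of 16 with a probe, 3 rose (18.8%) and 2 fell (12.5%), against 2.44% and 2.74% of all genes, with a median of 0.36. Sgk1, which encodes a kinase induced by the hormone, read 8.65, 8.79 and 8.68 in control rats and 10.44, 9.73 and 10.65 in TBI rats (1.57 ± 0.28, adjusted p = 0.0188), and Tsc22d3, which encodes the anti-inflammatory protein GILZ, rose by 0.68 ± 0.14. Myoc was well above background on 0 of 3 control arrays (2.34, 2.09 and 2.18) and on all TBI arrays (4.77, 9.08 and 6.17). Its TBI mean was at least 6.91-fold higher, a bound raised by TBI rat 2 that does not hold for each rat. The calls of Sgk1 and Myoc were lost without any 1 of the control rats, up to adjusted p of 0.0638 and 0.0891, and that of Tsc22d3 without any 1 of the control or TBI rats, among others, up to 0.0988. Fkbp5, which encodes a chaperone of the receptor, read 10.19, 10.44 and 10.33 against 9.80, 9.59 and 9.11 (-0.82 ± 0.18, adjusted p = 0.037). Its 2 other probes gave -0.53 and -0.52 without a call, and the call was lost without any 1 of the control rats, among others (up to 0.108). Zbtb16, a transcription factor gene, fell from 6.72, 7.35 and 7.09 to 4.89, 5.25 and 3.83 (-2.40 ± 0.43, adjusted p = 0.019), a call lost without control rat 2 or 3 (up to 0.0643).

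Some markers of lymphocytes fell and others did not. Of 13 T lymphocyte markers with a probe, 3 fell (23.1%) and 0 rose, against 2.74% and 2.44% of all genes, with a median of -0.40. The normexp correction gave 1 down and a median of 0. Cd3g, a chain of the T cell receptor complex, read 7.07, 7.31 and 7.09 in control rats and 2.84, 4.14 and 3.68 in TBI rats, with 2 of 3 TBI arrays well above background (-3.60 ± 0.43, adjusted p = 0.00381). Cd2, an adhesion receptor, read 5.43, 5 and 5.2 in control rats and 1.28, 1.28 and 1.93 in TBI rats, with 0 of 3 TBI arrays well above background, at least 5.14-fold lower. Cd3e was called down with 0 arrays of either group well above background. In contrast, Cd3d (-0.78 ± 0.34), Cd4 (0.71 ± 0.37) and Cd8b (0.78 ± 0.30) did not pass the test. The summed intensity of the T lymphocyte markers was 806 to 1155 in control rats and 556 to 790 in TBI rats, without overlap, and its largest part in most rats was Cd3d.

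Of 8 B lymphocyte markers, Cd79b fell (12.5%, against 2.74% of all genes), from 6.11, 4.83 and 4.63 in control rats to 2.05, 2.19 and 2.62 in TBI rats, where 0 of 3 arrays were well above background, at least 4.98-fold lower (adjusted p = 0.00484). With normexp 0 of the 8 were called and the median was -0.09, where the main median was -0.64. Cd22, a B cell receptor of the lectin family, lay higher in each TBI rat (7.26, 7.72 and 7.96) than in the control rats (7.06, 7.09 and 7.16) and did not pass the test (0.54 ± 0.18, adjusted p = 0.117). The receptor for IgM, Fcmr, which was not in the list, read 7.69, 7.04 and 6.75 in control rats and 3.52, 3.51 and 3.32 in TBI rats (-3.71 ± 0.36, adjusted p = 0.00176). The summed B lymphocyte markers overlapped, with 339 to 366 in control rats and 220 to 379 in TBI rats. Of 11 natural killer cell markers 0 were called in limma (1 at an unadjusted p under 0.05), with a median of -0.51 and sums of 2554 to 5680 and 1444 to 4695.

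Of 5 mast cell proteases, Mcpt1 and Cma1 fell. Mcpt1 read 6.46, 6.90 and 6.59 in control rats and 1.81, 2.14 and 2.82 in TBI rats, with 1 of 3 TBI arrays well above background (-4.40 ± 0.32, adjusted p = 0.000521). Cma1, which encodes chymase, was at least 2.37-fold lower (adjusted p = 0.00283), and its dim second probe gave -0.68 without a call. In all, 3 of 9 mast cell markers fell (33.3%), against 2.74% of all genes, with Kit called where 0 arrays were well above background. The median was -0.96, whereas normexp gave 1 down and a median of -0.11. The tryptase genes Tpsab1 (-1.04 ± 0.26, adjusted p = 0.0549) and Tpsb2 (-1.44 ± 0.53, adjusted p = 0.153) and the carboxypeptidase gene Cpa3 (-0.72 ± 0.29, adjusted p = 0.182) did not pass the test. Hdc, which encodes histidine decarboxylase of histamine synthesis, was well above background on all arrays and had a positive estimate that did not pass it either (0.55 ± 0.29, adjusted p = 0.299). The summed mast cell markers were 1642 to 1678 in control rats and 773 to 1385 in TBI rats, without overlap, but most of the sum was Tpsab1 in each rat, which was not called. Of 14 neutrophil and monocyte markers, Fcnb, which encodes ficolin B, fell by 1.49 ± 0.16 (7.14%, against 2.74% of all genes), while 7 estimates were positive and the median was -0.03. Itgam (1.15 ± 0.52) and S100a9 (0.46 ± 0.48) of that list did not pass the test. Of 10 stellate cell markers, Lrat, the enzyme that stores vitamin A as retinyl ester, fell by 0.62 ± 0.10 (10%), while 4 estimates were positive and the median was -0.11. Without TBI rat 1 or control rat 1, with the 75th percentile or with the 2 groups alone, 0 stellate cell markers were called.

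MHC class II genes separated the TBI rats from each other. Cd74, the invariant chain, read 11.84, 12.44 and 12.60 in control rats and 10.86, 15.29 and 15.38 in TBI rats. TBI rat 1 was below and TBI rats 2 and 3 were above all control rats, and 0 of 7 genes were called in limma (1 at an unadjusted p under 0.05), with a median of 1.55. RT1-Da, a class II alpha chain, followed the same pattern with 9.36, 13.82 and 14.02 against 10.41, 10.79 and 10.63, a difference of 1.79 ± 1.07 (adjusted p = 0.351). The summed level of the 7 genes was 7170, 10544 and 11127 in control rats, 4508, 75771 and 79552 in TBI rats and 3234 to 4951 in MASM + TBI rats. Without TBI rat 1, 5 of the 7 genes were called up, with a median of 3.04. The class II transactivator gene Ciita was also lowest in TBI rat 1, with 3.14, 6.07 and 5.63 in TBI rats and 3.83, 4.98 and 4.23 in control rats, 2 of 3 arrays of each group being well above background. The summed Kupffer cell markers were 99093, 182061 and 146623 in TBI rats and 94294 to 144518 in control rats, so that TBI rats 2 and 3 lay above all control rats here too, by less than in the class II genes. The median difference from the control mean was -0.06, 0.62 and 0.44 over the Kupffer cell markers of TBI rats 1, 2 and 3 and -1.34, 0.26 and -0.18 over the natural killer cell markers, lowest in TBI rat 1 in both. The part of these cells in the class II values was not tested.

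**Figure D5:**
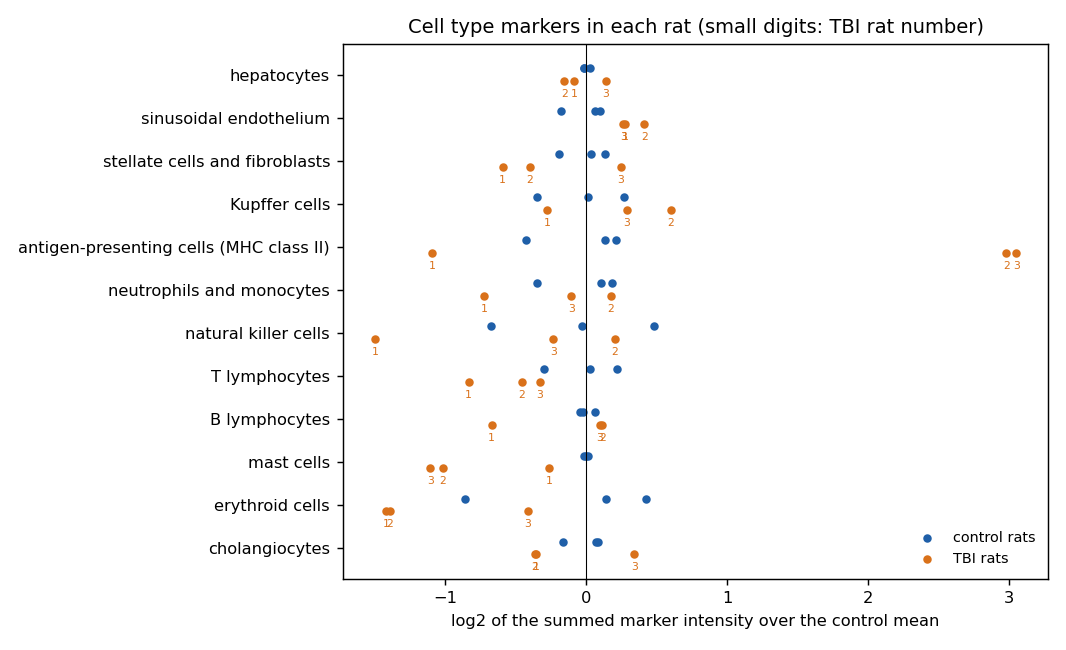
Summed intensity of the markers of each cell type, as log2 of the ratio to the control mean, for each control rat (blue) and each TBI rat (orange, with its number). Hepatocyte markers stay near 0, and mast cell and T lymphocyte markers of all TBI rats lie below the control rats. Sinusoidal endothelium markers of all TBI rats lie above the control rats (sums of 25788 to 28590 against 18943 to 23031), with 0 of 10 markers called. The class II genes of TBI rats 2 and 3 lie far above TBI rat 1.

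Of 17 transporters with a probe, 2 rose (11.8%) and 3 fell (17.6%), against 2.44% and 2.74% of all genes. Leaving out each rat in turn gave 0 to 2 up and 1 to 4 down, and normexp gave 1 and 1. Abcb1b, which encodes a P-glycoprotein exporter, read 5.08, 5.03 and 4.48 in control rats and 7.24, 7.12 and 7.92 in TBI rats (2.56 ± 0.43, adjusted p = 0.0157), and its paralog Abcb1a fell by 1.08 ± 0.20, with 2 of 3 TBI arrays well above background. The groups did not overlap for either paralog, and the calls were lost without control rat 3 (0.0603) and TBI rat 2 (0.0543), respectively. Abcc2, the canalicular exporter of conjugates, fell from 14.39, 14.19 and 14.30 to 13.39, 13.29 and 13.40 (-0.93 ± 0.10, adjusted p = 0.00312). Abcb4, the phospholipid exporter of bile, rose by 0.90 ± 0.18, and Abcg8, a sterol exporter, fell by 1.23 ± 0.28, and both calls were lost without any 1 of the control rats, among others (adjusted p up to 0.083 and 0.108). All 5 belonged to the 10 ABC transporters, and 0 of 7 uptake carriers were called in limma (1 at an unadjusted p under 0.05).

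Gpam, the first enzyme of glycerolipid synthesis, rose from 6.78, 6.56 and 6.98 to 8.33, 8.41 and 8.14 (1.52 ± 0.14, adjusted p = 0.00139), and Pklr, the liver pyruvate kinase, fell by 1.22 ± 0.23, a call lost without control rat 1 or 3 or TBI rat 2 or 3 (up to 0.0859). Upp2, a uridine phosphorylase gene, read 10.48, 11.19 and 10.13 in control rats and 4.99, 7.49 and 6.97 in TBI rats. This was a difference of -4.12 ± 0.82 (adjusted p = 0.028) with a wide spread among TBI rats, lost without any 1 of the control rats or TBI rat 1 (up to 0.083). Gclm, the modifier subunit of the enzyme that starts glutathione synthesis, fell by 2.23 ± 0.31, with 4.76, 4.52 and 4.39 against 2.35, 1.71 and 2.91 and 1 of 3 TBI arrays well above background. Among 14 Nrf2 targets, Gclm and the aldehyde reductase gene Akr7a3 (-1.46 ± 0.34, lost in 9 of the 10 fits that left out 1 rat, up to 0.128) fell (14.3%, against 2.74% of all genes) and 0 rose, with a median of 0.25. Scd, the stearoyl-CoA desaturase, spread from 11.76 to 14.19 in control rats and from 9.36 to 12.04 in TBI rats and did not pass the test (-2.46 ± 0.76, adjusted p = 0.102).

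Acute phase genes, which the liver induces in inflammation, gave 2 rises (6.45%) and 0 falls among 31, against 2.44% and 2.74% of all genes, with a median of 0.15. Orm1, the alpha-1 acid glycoprotein, read 14.48, 15.35 and 15.18 in control rats and 16.58, 16.94 and 16.27 in TBI rats (1.59 ± 0.34, adjusted p = 0.0357), and Lbp, the lipopolysaccharide-binding protein, rose by 1.30 ± 0.23 (adjusted p = 0.0179). Both lay apart between the groups. MASM + TBI rat 3 read 15.32 for Orm1, within the control range, and 10.51 for Lbp, just above all control rats (9.96 to 10.48). The call of Orm1 was lost in 7 of the 10 fits that left out 1 rat (up to 0.0931) and that of Lbp without control rat 1 or 2 (up to 0.057). The genes of alpha-2-macroglobulin, A2m (0.45 ± 0.84), and of complement C3 (0.03 ± 0.06) did not pass the test. Pla2g2a, a secreted phospholipase A2 that was not in the list, rose from 5.60, 5.09 and 6.48 to 8.75, 8.10 and 7.95 (2.54 ± 0.39, adjusted p = 0.011), and Wfdc21, a secreted protein, rose by 2.23 ± 0.38.

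Of 21 drug-metabolising cytochrome P450 genes, Cyp2a1 rose (0.87 ± 0.21) and Cyp2b1 fell (-0.76 ± 0.18), or 4.76% in each direction against 2.44% and 2.74% of all genes, with a median of -0.07. Both calls were near the threshold (adjusted p = 0.0481 and 0.0491), and both were lost in 9 of the 10 fits that left out 1 rat (up to 0.146 and 0.118). The 3 other probes of Cyp2b1 gave -0.03, -2.02 and -1.11 without a call. The male-specific Cyp2c11 read 17.28, 16.84 and 17.11 in control rats and 16.53, 15.04 and 15.27 in TBI rats, which did not overlap but did not pass the test (-1.46 ± 0.39, adjusted p = 0.0683). Of 21 conjugation enzymes, Gstt2 (-0.92) and Sult1c2 (-1.39) fell (9.52%, against 2.74% of all genes), and their other probes gave -0.43 and -1.36 without a call. The receptor gene Nr1i3, which encodes CAR, fell by 0.98 ± 0.21, and Nr1h4, which encodes the bile acid receptor FXR, rose by 0.66 ± 0.15. The calls of Gstt2, Sult1c2, Nr1i3 and Nr1h4 were all lost without control rat 1 or 3, among others, with adjusted p of up to 0.0913, 0.101, 0.0887 and 0.114.

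Immediate-early genes varied widely between rats of a group. Of 20 genes 0 were called in limma (6 at an unadjusted p under 0.05), 16 had a positive estimate, and the median was 0.87. The fit of control and TBI rats alone called 2 up, and leaving out each rat in turn gave 0 to 4. Nr4a1, an orphan nuclear receptor gene, read 7.33, 9.33 and 7.95 in control rats and 11.11, 12.60 and 12.38 in TBI rats. The groups did not overlap, but MASM + TBI rats of the same fit ranged from 5.97 to 11.90, and the difference of 3.83 ± 1.46 had an adjusted p of 0.162. Jun read 9.90, 12.16 and 11.27 against 12.62, 13.86 and 13.68 (2.28 ± 0.90, adjusted p = 0.173), and Gadd45b 9.94, 9.85 and 9.59 against 11.33, 11.59 and 11.09 (1.54 ± 0.44, adjusted p = 0.0819). In the stress response of Atf4, Atf4 itself passed the test (0.59 ± 0.14, adjusted p = 0.0477, up to 0.132 when 1 rat was left out), and Chac1, which degrades glutathione, did not (4 ± 1.39, adjusted p = 0.131).

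Cholesterol synthesis genes had a positive estimate in 23 of 26 cases, with a median of 0.36, and 0 were called in limma (4 at an unadjusted p under 0.05). TBI rat 1 lay apart from the other TBI rats here too. Its median difference from the control mean over the list was -0.18, against 0.57 and 0.63 in TBI rats 2 and 3, and without it the median of the list was 0.64. The genes of fat oxidation (27 with a probe), glucose metabolism (15), amino acid breakdown and the urea cycle (22), the growth hormone axis (10) and the endoplasmic reticulum chaperones (11) gave 0 calls in limma, with medians between -0.15 and 0.07. At an unadjusted p under 0.05 there were 9, 5, 6, 2 and 3 such genes. The 12 housekeeping genes had a median of -0.02.

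The largest fall among the 506 called genes ranked was that of Rasd2, a small GTPase gene that is known mainly from the striatum of the brain. It read 7.99, 8.48 and 7.91 in control rats and 2.79, 1.93 and 3.89 in TBI rats, with 1 of 3 TBI arrays well above background, a difference of -5.26 ± 0.52 (adjusted p = 0.00181). The second, dimmer probe of Rasd2 gave -0.36 ± 0.30 (adjusted p = 0.496), so that the probes disagree. Nrg1, a ligand of the ErbB receptors, rose from 6.50, 6.70 and 7.11 to 8.61, 9.06 and 9.78 (2.38 ± 0.27, adjusted p = 0.00349), and its second probe gave 2.30 ± 0.17. Vxn rose by 2.53 ± 0.34.

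The TBI rats were set against the 4 MASM + TBI rats for the 86 genes named by rule, and 5 differed in limma (adjusted p under 0.05 and a fold change of at least 1.5), beside 0.864% of all genes. The 86 genes were chosen with the TBI arrays, which also enter this contrast, so that nothing is read from the count or from its direction, and the values are given as a description. All 5 had fallen in TBI rats. Gclm read 4.98, 4.83, 4.42 and 5.24 in MASM + TBI rats, a difference from TBI rats of 2.54 ± 0.29 (adjusted p = 0.00682), and the control rats lay at 4.39 to 4.76. Abcb1a read 5.47, 5.42, 5.71 and 5.52, which was 2.09 ± 0.18 above TBI rats (adjusted p = 0.00326) and above all control rats (4.32 to 4.86). Per2 (1.33 ± 0.17), Zbtb16 (2.12 ± 0.40) and Abcg8 (1.77 ± 0.26) were the other 3. The count moved with the setting, from 0 with Welch's t-test and 1 with the normexp correction to 12 with scaling to the 75th percentile. With the slide as a random block it was 13. Neither Cdkn1a (-0.57, adjusted p = 0.304) nor Cdk1 (0.20, adjusted p = 0.828) nor Rsad2 (0.23, adjusted p = 0.712) passed the test between MASM + TBI and TBI rats.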

How the data were processed

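The authors scanned single-colour Agilent whole-genome rat arrays and extracted the spots with Agilent Feature Extraction 10.7. Their quantile normalization in GeneSpring is not part of the values used here. The deposited scanner files hold the processed signal intensity of each spot, already background-subtracted within the array, and a deposited table of the whole series holds the same intensity values (largest difference 0). From the intensity, control spots were left out, log2 values of 40945 probes (67 of 41012 lacked a value on some array) were quantile normalized over all 10 arrays in R 4.3.3, and spots of 1 probe were averaged.

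All 10 arrays entered 1 fit in limma 3.58.1 (lmFit, eBayes) with a mean per group, followed by Benjamini-Hochberg adjustment across probes. A change was called at an adjusted p under 0.05 and a fold change of at least 1.5. Genes were named through accessions in RefSeq tables (16950 probes, 13426 genes), with the probe of the highest mean level for each gene. Named genes were the 15 largest rises and 15 largest falls among 506 eligible genes and, from each gene list, up to 6 called genes in each direction, and genes outside this rule are given by their values only. The gene lists and the groups compared were chosen with earlier results of these data known. Counts of a list run over every listed gene with a probe. A lower bound of the fold is given for a gene with 0 arrays well above background in its dimmer group and some in the other. It sets the mean of the brighter group against the lowest signal well above background on each array of the dimmer group. Where only some arrays of the dimmer group were well above background, the estimate itself is given. That estimate rests in part on signals not well above background.

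The labels do not say whether rats of a group were handled separately, so the p-values measure the spread between these samples, and the 3 arrays of a group limit the precision. The fit was tested on simulated data. Alternatives in the values were scaling to the 75th percentile, normexp (offset 50) on spot and background medians, the authors' table of intensity and probes well above background only. Alternatives in the test were a fit of the 2 groups alone, Welch's t-test with the same adjustment, a trended robust prior and the replicate number or the slide as a block. The mean over the probes of a gene and leaving out each rat were used as well. Promoters were read from RefSeq (GRCr8). The probes' own sequences were not used here. Some genes that enter the counts and medians of their lists are not reported here by name or value.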

Additional observations from a re-analysis of the deposited data

Results flagged for a closer look

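Between irradiated rats with and without MASM, 5 of the genes above differed by the limma contrast of MASM + TBI minus TBI rats. Unirradiated rats given MASM were not analysed here, so that an effect of the drug on a gene and a changed effect of irradiation cannot be told apart. The genes were chosen with the TBI arrays that also enter this contrast. The differences were 2.09 on the log2 scale for Abcb1a (adjusted p = 0.00326), 1.77 for Abcg8 (0.0176), 2.54 for Gclm (0.00682), 1.33 for Per2 (0.00955) and 2.12 for Zbtb16 (0.0435), where 0.864% of all genes were called. In each gene all 4 MASM + TBI rats lay above all 3 TBI rats. All MASM + TBI rats were on other slides than the TBI rats, so that slide and drug cannot be told apart. In TBI rats, Gclm was well above background on 1 of 3 arrays and Abcb1a on 2 of 3.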

How the results depend on the processing

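The 1842 probes called became 6950 (23.2% up) with scaling to the 75th percentile, 553 (37.1% up) with normexp and 943 with the 2 groups alone. They became 10 with Welch's t-test after adjustment, 4078 with the slide as a random block and 5166 (51.7% up) at an unadjusted p under 0.05 in limma. The paper names a t-test at p under 0.05 and no adjustment, so that the 10 are not a count by its procedure. Leaving out 1 rat gave 914 (without control rat 3) to 2312 (without TBI rat 3), with 42.6% to 56.6% up, and without control rat 1 or 2 the counts were 1187 and 1031. Of the main calls, 26.5% remained with normexp, 41.1% with the 2 groups alone and 94% with the 75th percentile. The 108 calls among list genes became 65 with the 2 groups alone, 0 with the t-test, 164 with the slide and 67 to 108 without 1 rat (71 without control rat 2). The 5 differences between MASM + TBI and TBI rats, whose alternatives were chosen after seeing the data, became 12 with the 75th percentile, 1 with normexp, 0 with the t-test, 13 with the slide and 3 to 6 without 1 rat (3 without TBI rat 2 or MASM + TBI rat 1). With the replicate block, 0 probes and 0 list genes were called, but the numbers do not pair the rats (correlations of deviations 0.09, 0.03 and 0.03 for rats 1, 2 and 3). No estimate of the 86 named genes changed sign under these settings, and 51 kept their call with each rat left out and 61 with normexp. The cause of these shifts was not tested, except that fits without a rat have fewer samples. With normexp the median of the mitosis genes was -0.30 and that of the interferon-stimulated genes -1.05, where the main medians were -1.63 and -1.36. Signal over background limits 10729 probes, which were above background on no array of either group.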

Other observations

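Some called genes outside the lists, picked after their values were seen, belong to groups already described. Tcf19 (-1.68 ± 0.12, adjusted p = 0.000596), the microtubule regulator Stmn1 (-1.69), Aspm (-1.60), Kifc1 (-2.69) and the securin gene Pttg1 (-1.63) fell beside the mitosis genes, and Rtp4 (-1.89) and Oas1i (-2.62) beside the interferon-stimulated genes. Among genes of hepatocyte metabolism, Hsd17b2, a steroid dehydrogenase (-1.44), Slc37a4, the glucose-6-phosphate carrier (-1.09), and Ugp2, which makes UDP-glucose (-1.45), fell, whereas Tfrc, the transferrin receptor (1.19), and Nfe2l2, which encodes Nrf2 (1.13), rose.

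Of 1040 olfactory receptor probes, 38 rose (3.65%) and 4 fell (0.385%), against 2.01% and 2.49% of all probes. In these probes 104 were well above background on all TBI arrays but not on all control arrays, and 4 the reverse. The control spots without rat sequence read lower on the TBI arrays (2.04 to 2.41) than on the control arrays (2.96 to 3.25), and their part in these counts was not tested.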
